A study of Mus musculus with 4 samples.

Results

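The quantity described is the difference between 2 oxygen differences: how much more, or less, a transcript differed between 5% and 21% O2 in fibroblasts transduced with reprogramming factors than in untransduced fibroblasts. Total RNA of mouse embryonic fibroblasts was measured on 4 one-colour Agilent microarrays, 1 for each condition. Four-factor cells (MEF 4F) are embryonic fibroblasts that received 4 transduced genes, c-Myc, Klf4, Oct3/4 and Sox2. They were kept at 21% or 5% O2 for 72 hours, and their labels give day 4. Untransduced embryonic fibroblasts (MEF) were grown at 21% or 5% O2 for 10 days. No strain, embryonic age, vector or number of cultures is given in the sources used here. A gene's level is the log2 signal of its brightest probe minus the 75th percentile of that array, and its oxygen difference is the level at 5% minus the level at 21% O2. The difference of oxygen effects is the oxygen difference in four-factor cells minus that in untransduced fibroblasts, so a positive value means a higher level at 5% O2, relative to 21% O2, in four-factor cells. It was computed for the 14933 of 27597 gene names on the array that had a probe well above background on all 4 arrays.

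Cells sense oxygen mainly through prolyl hydroxylases (the Egln genes), which use oxygen to mark the HIF alpha subunits for destruction by the Vhl ubiquitin ligase. At low oxygen HIF alpha pairs with Arnt and raises transcription of genes for glucose uptake, glycolysis, angiogenesis and mitochondrial turnover, through a short DNA element, the hypoxia response element. The transduced factors turn fibroblasts, in a small share of cells and over many days, into pluripotent stem cells, a course that begins with faster division and loss of mesenchymal genes, and c-Myc itself drives growth and cell cycle genes.

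With 1 array per condition nothing here has been replicated and no p-value is given, and precision is limited by the number of arrays. Both arrays of a culture lay on 1 slide and in 1 scan, so each oxygen difference was taken within a slide, and a slide offset that is the same for both arrays drops out of the difference of oxygen effects. As the source of a difference between the cultures, slide, scan, days in culture and transduction cannot be told apart. Between 57.1% and 68.4% of probes were well above background on each array, and no spot was saturated. Replicate spots of 154 probes put the spread of a difference of oxygen effects that comes from single spots at 0.14 log2 units, which leaves out any spread between cultures. All 30 genes of a fibroblast and mesenchyme list were well above background on all arrays, as the labelled cell type implies, and 13 of 31 pluripotency genes and 7 of 24 epithelial genes were. The probe for Pou5f1 (Oct3/4) was well above background on both four-factor arrays, at -0.59 and -0.20, and on neither untransduced array. The Sox2 probe was well above background on both untransduced arrays, at -4.49 (21% O2) and -2.85 (5% O2). In four-factor cells it was too dim for this at 21% O2 and lower, at -5.67, at 5% O2. Klf4 was also lower in four-factor cells than in untransduced fibroblasts at both oxygen levels, so these probes do not show all 4 transductions. Whether the probes read the transduced copies was not tested.

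Over the 14933 genes the difference of oxygen effects had a median of 0.02 and quartiles of -0.24 and 0.26, and 78.0% of genes lay within 0.5 log2 units of 0. It was above 0 for 52.4% of genes, the share to set beside each list's count above or below 0. At least 2-fold (1 log2 unit) higher were 260 genes, 1.74% of those measured, and at least 2-fold lower were 437 genes, 2.93%. The oxygen difference itself varied across genes with an SD of 0.42 in untransduced fibroblasts and 0.35 in four-factor cells. Of the 260 higher genes 167 had the larger oxygen difference in untransduced fibroblasts, and of the 437 lower genes 308 did, so most of the 2-fold set had its larger oxygen difference in untransduced cells. The oxygen differences had opposite signs for 175 of the higher and 344 of the lower genes. In the whole set, 23.9% of genes were above 0 in four-factor cells and below 0 in untransduced fibroblasts, and 20.6% were the reverse. The 2-fold genes were chosen by a large difference between the 2 oxygen differences, which by itself favours opposite signs. Their counts therefore cannot be weighed against the shares of the whole set. The difference of oxygen effects can also be read as a change in the gap between the cultures. For 146 of the higher and 318 of the lower genes the levels lay farther apart at 5% than at 21% O2 with the same sign. The genes were chosen by this same change, so these counts describe the chosen genes only.

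**Figure D1:**
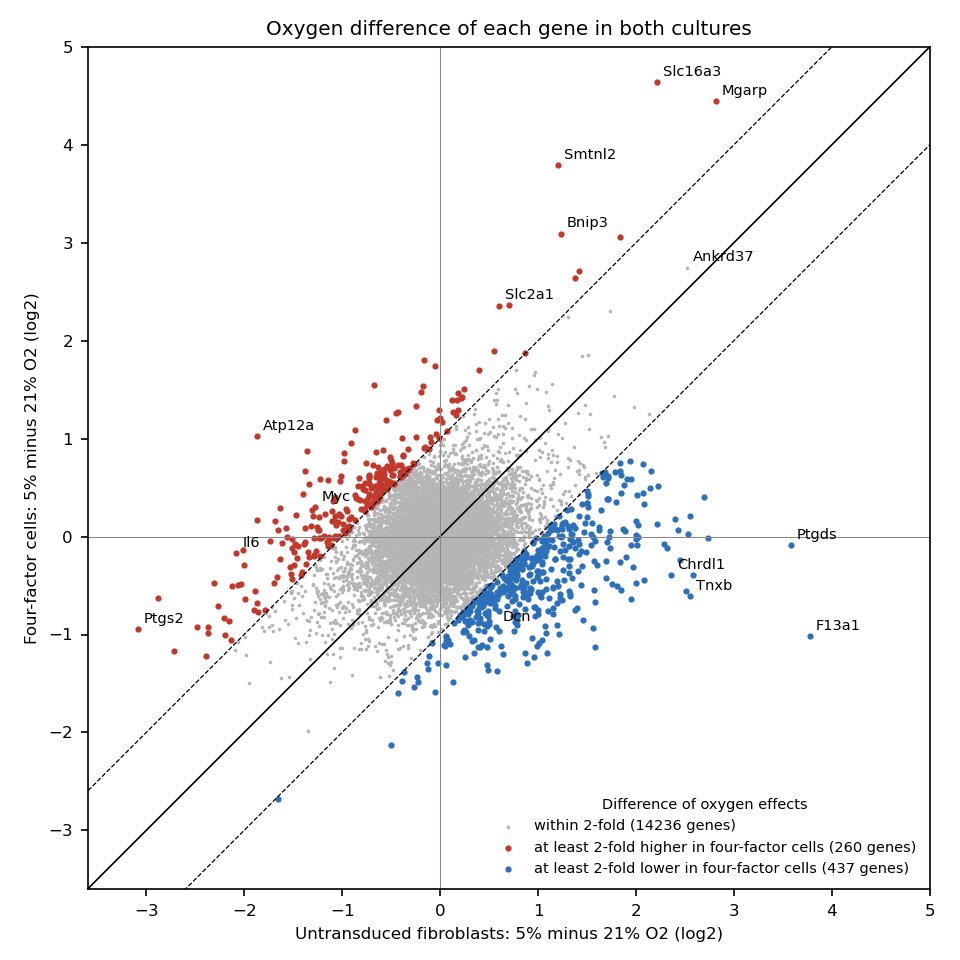
Oxygen difference (5% minus 21% O2, log2) of each of 14933 genes in untransduced fibroblasts (horizontal) and four-factor cells (vertical), 1 array per condition; the solid line marks equal differences and the dashed lines a 2-fold difference of oxygen effects. The 260 higher genes (red) hold a few with a large positive difference in four-factor cells, such as Slc16a3 (4.64 against 2.22), and the 437 lower genes (blue) extend along the horizontal axis, as F13a1 does (-1.01 against 3.78).

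The genes just inside and just outside the limit were AK041551 at 1.001 and Cenpw at 0.999 on the higher side, and S100b and Msln, which both round to -1.0, on the lower side. Dim genes made up much of the 2-fold set. Of the 2987 dimmest genes 10.9% were at least 2-fold apart, and of the 2987 brightest 1.10% were. With normexp background correction, which raises dim signals, 125 genes were higher and 184 lower, and those shares were 2.28% and 1.07%. Scaling the arrays on 8 spike-in controls in place of the 75th percentile moved the median of all genes to 0.24 and gave 602 higher and 251 lower genes, so the balance of higher against lower genes depends on the scaling. Of the genes called with the 75th percentile, 121 of the 260 higher and 177 of the 437 lower genes were also past 2-fold with normexp. Spike-in scaling raises the difference of every gene by the same amount. All 260 higher genes therefore had to stay past 2-fold with it, and 251 of the 437 lower genes did. Under spike-in scaling 3 of 27 gene lists changed the sign of their median (NRF2, amino acid and unfolded protein stress, and cartilage and bone). A shift of this kind can turn only medians just below 0.

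Most HIF targets were higher at 5% O2 in both cultures, and most differed more with oxygen in four-factor cells. Of 34 HIF targets 31 were measured on all arrays, and at 5% O2 30 of these were higher in the four-factor culture and 27 in the untransduced culture. The difference of oxygen effects was above 0 for 25 of the 31, with a median of 0.42 against 0.02 for all genes, and at least 2-fold higher for 4 (Bnip3, Ppp1r3c, Mgarp and Higd1a). In the list of glucose uptake, glycolysis and lactate genes, all 25 were measured, 22 were above 0, the median was 0.48, and 6 were at least 2-fold higher. Of all genes 52.4% were above 0 and 1.74% were at least 2-fold higher.

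Slc16a3 encodes MCT4, the transporter that exports lactate. In four-factor cells its level was 1.62 at 21% O2 and 6.26 at 5% O2, and in untransduced fibroblasts it was 1.42 and 3.64, which gave oxygen differences of 4.64 and 2.22 and a difference of oxygen effects of 2.42. The cultures were close at 21% O2, and four-factor cells were higher at 5% O2. Slc2a1, the glucose transporter GLUT1, showed the same form with 2.66 and 5.02 in four-factor cells against 2.89 and 3.49 in untransduced fibroblasts, a difference of oxygen effects of 1.76. Bnip3, a mitochondrial receptor that directs mitochondria to autophagy, had levels of 1.70 and 4.79 in four-factor cells and 1.93 and 3.16 in untransduced fibroblasts, a difference of oxygen effects of 1.86. In these genes the cultures lay within 0.23 log2 units of each other at 21% O2 and 1.53 to 2.62 apart at 5% O2.

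The promoters of these genes are shown because they share the core letters of the hypoxia response element. The windows are those of RefSeq on GRCm38.p6, 300 bases that reach just past the gene's start, and the capitals mark ACGTG or GCGTG on either strand (CACGT or CACGC on the printed strand), where overlapping matches run together. They are Slc16a3 at chr11:120948817-120949116 (plus strand), Slc2a1 at chr4:119108495-119108794 (plus strand) and Bnip3 at chr7:138909457-138909756 (minus strand).
Slc16a3: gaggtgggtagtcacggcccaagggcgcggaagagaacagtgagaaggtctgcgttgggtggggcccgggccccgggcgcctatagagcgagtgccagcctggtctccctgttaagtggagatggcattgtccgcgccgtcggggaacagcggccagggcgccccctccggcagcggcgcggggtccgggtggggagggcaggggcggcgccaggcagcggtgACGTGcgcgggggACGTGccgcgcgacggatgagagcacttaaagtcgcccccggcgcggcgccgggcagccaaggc
Slc2a1: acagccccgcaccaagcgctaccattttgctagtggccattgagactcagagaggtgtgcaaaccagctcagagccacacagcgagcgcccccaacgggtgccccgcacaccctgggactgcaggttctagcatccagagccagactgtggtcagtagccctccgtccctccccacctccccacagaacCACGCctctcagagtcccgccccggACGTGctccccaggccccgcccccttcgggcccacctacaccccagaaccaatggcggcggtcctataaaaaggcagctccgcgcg
Bnip3: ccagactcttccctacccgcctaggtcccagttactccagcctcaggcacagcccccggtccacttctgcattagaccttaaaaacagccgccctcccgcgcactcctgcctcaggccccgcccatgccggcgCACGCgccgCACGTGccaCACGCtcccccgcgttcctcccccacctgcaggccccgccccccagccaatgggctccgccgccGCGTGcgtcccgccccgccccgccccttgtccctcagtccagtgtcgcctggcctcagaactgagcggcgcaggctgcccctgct
The letters occur 2, 2 and 5 times in these windows. They are common: 43.8% of all 32851 windows hold them, 61.3% of windows of genes measured here, 78.8% of the 33 windows of HIF targets and 78.4% of the 37 windows of glycolysis genes. Among the genes at least 2-fold higher 58.6% of windows hold them, and among those at least 2-fold lower 43.9%. A match is a run of letters and not a measured binding site.

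Other members of these lists differed in the same direction. Mgarp, a mitochondrial protein induced by low oxygen, was at -3.93 and 0.52 in four-factor cells and at -3.40 and -0.59 in untransduced fibroblasts, with a difference of oxygen effects of 1.63. It was higher at 5% O2 in both cultures. Higd1a, a small inner membrane protein of mitochondria, had 3.56 and 5.26 against 3.50 and 3.89, a difference of 1.3. Pdk1, the kinase that keeps pyruvate out of the citric acid cycle, had oxygen differences of 2.64 and 1.38. Aldoc, a glycolytic aldolase, had 2.71 and 1.42. Hk2, a hexokinase, was higher at 5% O2 in four-factor cells, by 1.01, and differed by -0.10 in untransduced fibroblasts, a difference of oxygen effects of 1.12. Pfkl, the liver isoform of phosphofructokinase, completed the 6, with oxygen differences of 1.87 and 0.87 and a difference of 1.0.

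Smaller differences were seen for Vegfa, the angiogenic growth factor, with oxygen differences of 1.36 and 0.57 and a difference of 0.79. With the median over its 3 probes in place of the brightest, the Vegfa difference was 0.23. Tfrc, the transferrin receptor, had oxygen differences of 0.49 and -0.48. Tfrc lay on opposite sides of 0 in the 2 cultures. Ppp1r3c, a glycogen-targeting subunit of protein phosphatase, was dim in four-factor cells at 21% O2, with -6.10 and -3.74 against -0.29 and 0.42 in untransduced fibroblasts. Its difference of oxygen effects was 1.66 and fell to 0.41 with normexp. On the other side, Angptl4, a secreted inhibitor of lipoprotein lipase, had the lowest value of the HIF targets, -0.62, from oxygen differences of 1.02 and 1.64.

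Of 10 HIF subunits and oxygen sensors 9 were measured, 6 of these were above 0, against 52.4% of all genes, and the median was 0.16. Egln3, a prolyl hydroxylase that is itself a HIF target, was at -0.14 and 2.92 in four-factor cells and at -3.15 and -1.32 in untransduced fibroblasts, with a difference of oxygen effects of 1.22. It was higher in four-factor cells at both oxygen levels, and the gap was wider at 5% O2. Egln1, the main prolyl hydroxylase, had oxygen differences of 1.06 and 0.45, and Egln2, another member, had -0.38 and 0.04. Hif1a had oxygen differences of -0.28 and -0.26 and a difference of -0.01, and Epas1 (HIF-2 alpha) had -0.42 and -0.14. HIF alpha subunits are controlled mainly as proteins, which arrays do not measure.

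Some oxygen differences were large and alike. Ankrd37, a HIF target that encodes an ankyrin repeat protein, was at 0.29 and 3.04 in four-factor cells and at -2.26 and 0.25 in untransduced fibroblasts, so its oxygen differences were 2.75 and 2.52. Four-factor cells were higher by 2.55 at 21% and by 2.78 at 5% O2. The difference of oxygen effects of Ankrd37 was 0.23, and it was 0.53 with normexp. Ankrd37, Celsr1, Pou3f1 and Fgf5 were chosen because this value lay within 0.25 without normexp. Celsr1, a planar cell polarity cadherin, had oxygen differences of 1.18 and 1.17, and its difference of oxygen effects was 0.36 with normexp. Pou3f1, a POU transcription factor, had oxygen differences of 1.26 and 1.41. Fgf5, a fibroblast growth factor, was lower at 5% O2 in both cultures, by -1.20 and -1.15, though its difference of oxygen effects was 0.60 with normexp in place of -0.04. Cdkn1a, which encodes the CDK inhibitor p21, had oxygen differences of -0.61 and -0.60. Car9, a cell surface carbonic anhydrase widely used as a marker of HIF activity, had 0.83 and 0.80.

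**Figure D2:**
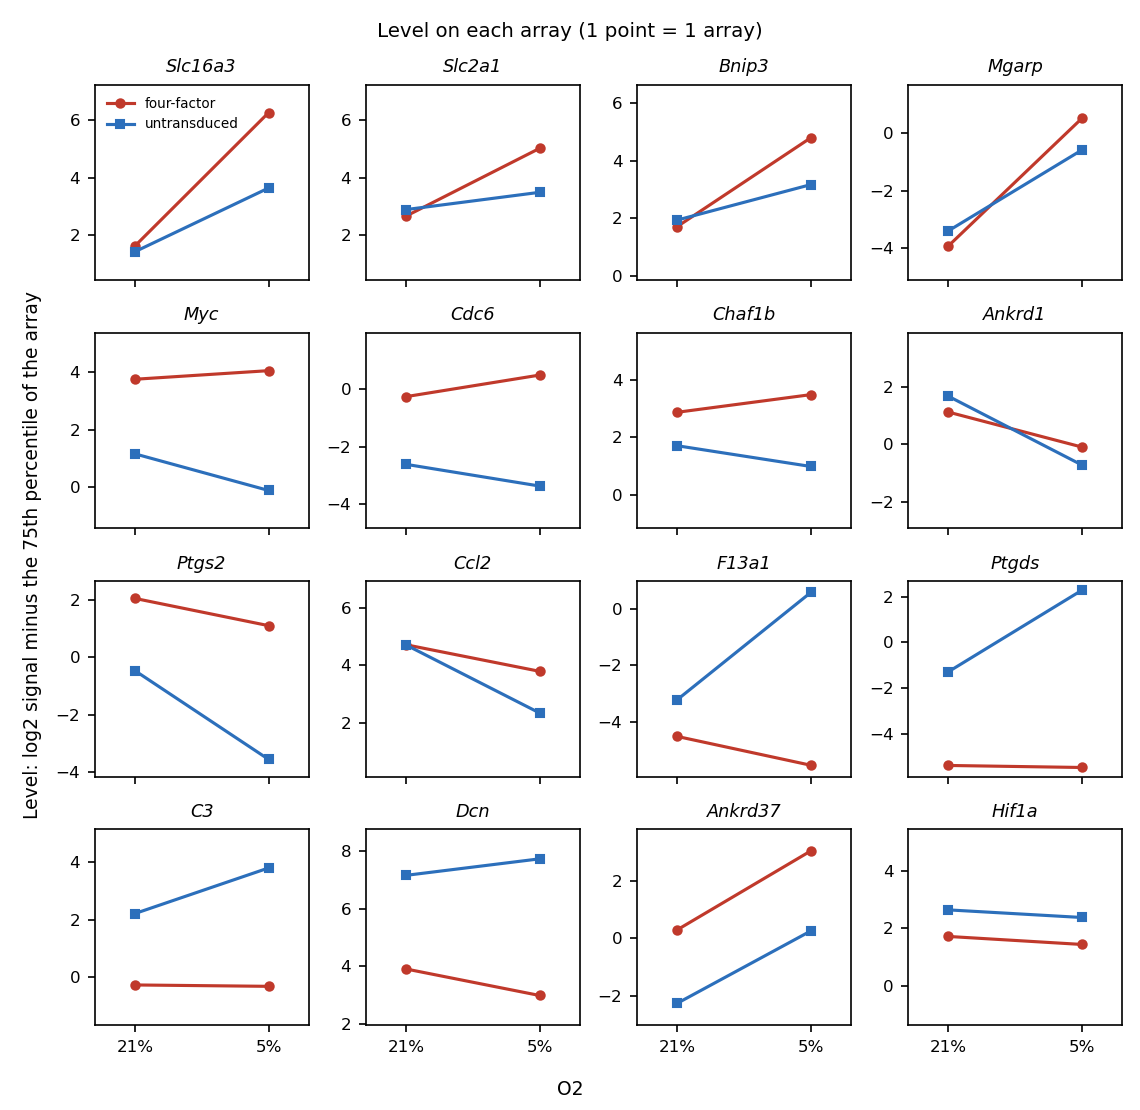
Level (log2 signal minus the 75th percentile of the array) of 16 genes at 21% and 5% O2 in four-factor cells (red circles) and untransduced fibroblasts (blue squares), 1 array per point and no error bar because each condition had 1 array. Slc16a3, Slc2a1 and Bnip3 start together and separate at 5% O2, and Ankrd37 and Hif1a run nearly in parallel. F13a1, Ptgds and C3 are higher at 5% O2 in untransduced fibroblasts and not in four-factor cells.

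Cell cycle genes lay on opposite sides of 0 in the 2 cultures. Of 40 DNA replication genes 39 were measured, all 39 had a higher level at 5% O2 in four-factor cells, and 38 had a lower level at 5% O2 in untransduced fibroblasts. Their median oxygen differences were 0.43 and -0.32, and the difference of oxygen effects was above 0 for all 39, from 0.17 to 1.51 with a median of 0.79. The 40 mitosis genes were all measured, and 37 were opposed in the same direction, with medians of 0.48 and -0.20 and differences from 0.40 to 0.97 with a median of 0.69. By comparison 23.9% of all genes were opposed in this direction. No mitosis gene and 7 of 39 replication genes reached 2-fold (Cdc6, Ccne2, Chaf1b, Mcm10, Uhrf1, Tk1 and Cdt1), and with spike-in scaling, which raises every gene by the same amount, 12 mitosis and 22 replication genes did. Of all 14933 genes 260 (1.74%) were at least 2-fold higher, and 602 were with spike-in scaling. Four-factor cells held the higher summed signal of the replication list at both oxygen levels, 339.3 and 451.6 times the 75th percentile against 142.2 and 111.5.

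Cdc6, which loads the replicative helicase at origins, was at -0.26 and 0.49 in four-factor cells and at -2.61 and -3.37 in untransduced fibroblasts, with a difference of oxygen effects of 1.51. The four-factor arrays were higher at both oxygen levels and the gap was wider at 5% O2. Mcm10, another initiation factor, had 2.79 and 3.43 against 0.48 and -0.12, a difference of 1.23. Chaf1b, a subunit of the chromatin assembly factor, had 2.87 and 3.48 against 1.71 and 0.98, a difference of 1.34. Ccne2, cyclin E2, had oxygen differences of 0.51 and -0.83, and Uhrf1, which keeps DNA methylation through replication, had 0.69 and -0.38. At the low end of the list, E2f1, a transcription factor of S phase genes, had 0.12 and -0.05.

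In mitosis, Top2a, the topoisomerase that untangles sister chromatids, was at 1.05 and 1.60 in four-factor cells and at 0.09 and -0.33 in untransduced fibroblasts, a difference of oxygen effects of 0.97. Ttk, the spindle checkpoint kinase, was at -1.97 and -1.40 against -3.92 and -4.29, a difference of 0.94. Both genes were higher in four-factor cells at both oxygen levels. Aurkb, a kinase of chromosome segregation, had oxygen differences of 0.81 and -0.16, and Ccnb1, cyclin B1, had 0.59 and -0.32. The 3 mitosis genes that were not opposed were Cenpa, Ccnb2 and Cenpf, with oxygen differences in untransduced fibroblasts of 0.17, 0.08 and 0.04. Mki67, a marker of proliferating cells, had 0.57 and -0.19. Cells that divide more and cells that hold more of these transcripts cannot be told apart in bulk RNA.

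The promoters of Top2a and Ttk are printed because mitotic genes share the letters of the cell cycle homology region, an element read by complexes that repress or activate G2/M genes. The RefSeq windows on GRCm38.p6 are chr11:99024140-99024439 (minus strand) and chr9:83834439-83834738 (plus strand), and the capitals mark TTTGAA or TTTAAA on either strand (TTCAAA or TTTAAA on the printed strand).
Top2a: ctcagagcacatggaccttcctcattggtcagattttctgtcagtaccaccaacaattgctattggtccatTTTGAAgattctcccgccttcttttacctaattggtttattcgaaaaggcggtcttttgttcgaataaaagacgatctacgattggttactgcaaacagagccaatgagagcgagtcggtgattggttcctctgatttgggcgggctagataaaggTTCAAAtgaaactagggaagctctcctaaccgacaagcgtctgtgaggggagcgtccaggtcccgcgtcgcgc
Ttk: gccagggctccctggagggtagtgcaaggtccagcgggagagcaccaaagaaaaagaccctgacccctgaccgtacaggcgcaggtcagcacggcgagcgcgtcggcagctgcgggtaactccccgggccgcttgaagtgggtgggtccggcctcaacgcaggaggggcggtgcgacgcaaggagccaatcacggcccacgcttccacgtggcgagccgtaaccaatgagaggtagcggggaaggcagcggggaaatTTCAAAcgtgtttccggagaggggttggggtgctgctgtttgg
The letters were in 88.6% of the 35 windows of measured mitosis genes, against 32.4% of the 37 windows of replication genes, 19.7% of windows of all genes measured and 27.6% of all windows. CCAAT on either strand was in 80.0% of the mitosis windows and in 37.4% of all windows. Among windows of genes at least 2-fold higher 22.4% held the homology letters, and no mitosis gene was in that set.

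**Figure D3:**
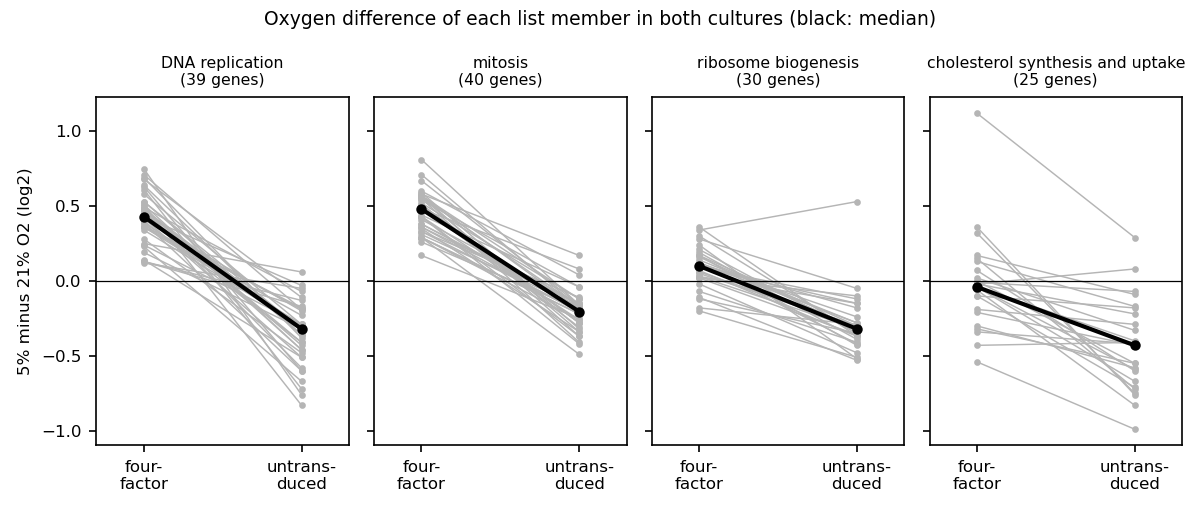
Oxygen difference (5% minus 21% O2, log2) of each measured member of 4 gene lists in four-factor and untransduced cells, joined by a line, with the list's median in black and 1 array per condition. Nearly all replication and mitosis genes fall from above 0 to below 0, while the cholesterol genes start near 0 in four-factor cells (median -0.04) and lie below it in untransduced fibroblasts (median -0.43).

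Other growth-related lists had smaller values of the same sign. The ribosome biogenesis list had a median of 0.37, with 29 of 30 genes above 0 and 23 opposed, from median oxygen differences of 0.10 and -0.32. Among all genes 52.4% were above 0 and 23.9% were opposed in this direction. Ncl, nucleolin, was at 6.80 and 6.99 in four-factor cells and at 5.64 and 5.25 in untransduced fibroblasts, a difference of 0.58. Ddx21, an RNA helicase of the nucleolus, had the list's highest value, 0.76. The respiratory chain list was above 0 for 30 of 32 genes with a median of 0.21, from median oxygen differences of 0.02 and -0.20. Cycs, cytochrome c, led it with oxygen differences of 0.11 and -0.64.

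Only 2 of the transduced factors, Myc and Klf4, were measured on all arrays, and Myc had the larger difference of oxygen effects. It was read by 3 probes on chromosome 15 of build mm8. The brightest (chr15:61819528-61819587) was at 3.75 and 4.05 in four-factor cells and at 1.16 and -0.11 in untransduced fibroblasts, a difference of 1.57. The probe at chr15:61819036-61819095 gave 1.45, with four-factor cells higher by 3.53 and 4.98. The probe at chr15:61819627-61819687 gave 0.77, and there four-factor cells were lower by 1.51 and 0.74. On every probe untransduced fibroblasts were lower at 5% O2, by -1.20 to -1.27, while the probes disagreed on which culture had more Myc. They also disagreed on the oxygen difference in four-factor cells, which was 0.30, 0.25 and -0.44 in the order given. Which of them read the transduced copy was not tested. Klf4 had oxygen differences of -0.46 and 0.10.

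At 5% O2 the cholesterol genes were lower in untransduced cells and near level in four-factor cells. Of 25 genes, all measured, 23 had a difference of oxygen effects above 0, with a median of 0.35. In untransduced fibroblasts 23 were lower at 5% O2 and in four-factor cells 17 were. Stard4, a sterol transport protein, was at 0.19 and 0.56 in four-factor cells and at -0.08 and -0.84 in untransduced fibroblasts, the highest difference of the list at 1.13. The untransduced array at 5% O2 was the lowest of the 4. Insig1, which holds back the sterol-sensing SREBP factors, had oxygen differences of 0.32 and -0.75. Hmgcs1, which makes the precursor of mevalonate, had 0.07 and -0.60.

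Most contractile genes had a lower level at 5% O2 in both cultures, 15 of the 17 measured in four-factor cells and all 17 in the untransduced ones. The list had median oxygen differences of -0.71 and -0.99, and 16 of the 17 had a difference of oxygen effects above 0 (median 0.41). Cnn1, calponin of smooth muscle, was at 5.15 and 4.40 in four-factor cells and at 5.84 and 3.93 in untransduced fibroblasts, a difference of 1.16. It was highest in untransduced fibroblasts at 21% O2 and lowest in the same cells at 5% O2. Acta2, smooth muscle actin, had oxygen differences of -0.77 and -1.18. The only member below 0 was Mylk, myosin light chain kinase, at -0.21.

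The list of TGF-beta and YAP targets was mixed, with 9 of 16 above 0, against 52.4% of all genes. Its median difference of oxygen effects was 0.17, although its median oxygen difference was lower in four-factor cells (-0.66) than in untransduced fibroblasts (-0.41), so list medians and the median of gene differences differed in sign. Ankrd1, a YAP target of stretched cells, was at 1.12 and -0.10 in four-factor cells and at 1.67 and -0.72 in untransduced fibroblasts, a difference of 1.18. It was lower at 5% O2 in both cultures, more so in untransduced fibroblasts. Ltbp2, which binds to matrix microfibrils, lay on the other side with -0.72 and 0.17.

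Immediate early genes, which are switched on within minutes by growth factors, had 5 of 19 measured members at least 2-fold higher, 14 above 0 and a median of 0.57. Of all genes 1.74% were at least 2-fold higher and 52.4% were above 0. Fosl1, an AP-1 subunit, was at 0.51 and 0.03 in four-factor cells and at -1.94 and -4.25 in untransduced fibroblasts, a difference of 1.84 that was 1.02 with normexp. Nr4a1, an orphan nuclear receptor, had 5.02 and 4.54 against 3.88 and 2.18, a difference of 1.22. Egr2, a zinc finger factor, had oxygen differences of 0.10 and -1.26. Egr3 and Ier3, the others, were at 1.55 and 1.07 and below 2-fold with normexp (0.84 and 0.95). Jun and Dusp1, from the same list, differed alike in both cultures, with -0.27 and -0.24 and with -0.88 and -0.80.

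Inflammatory mediators held the same form in some members only. Of 22 measured cytokine, chemokine and NF-kB genes 4 were at least 2-fold higher and 1 lower, and the median was 0.10. Of all genes 1.74% were at least 2-fold higher and 2.93% lower. Ptgs2, the inducible cyclooxygenase that makes prostaglandins, was at 2.05 and 1.11 in four-factor cells and at -0.46 and -3.54 in untransduced fibroblasts, a difference of 2.14. Il6, the cytokine interleukin 6, was at -1.57 and -1.73 against -1.71 and -3.79, a difference of 1.91, so the cultures were close at 21% O2 and the oxygen difference was -0.17 in one and -2.08 in the other. Ccl2, a monocyte chemokine, was at 4.71 and 3.78 against 4.70 and 2.33, a difference of 1.44. Ccl20, another chemokine, had oxygen differences of -0.99 and -2.37. Il33, an alarmin stored in nuclei, was the member at least 2-fold lower, with -0.58 and 0.91. The NF-kB targets Nfkbia and Tnfaip3 had differences of -0.18 and 0.17.

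**Figure D4:**
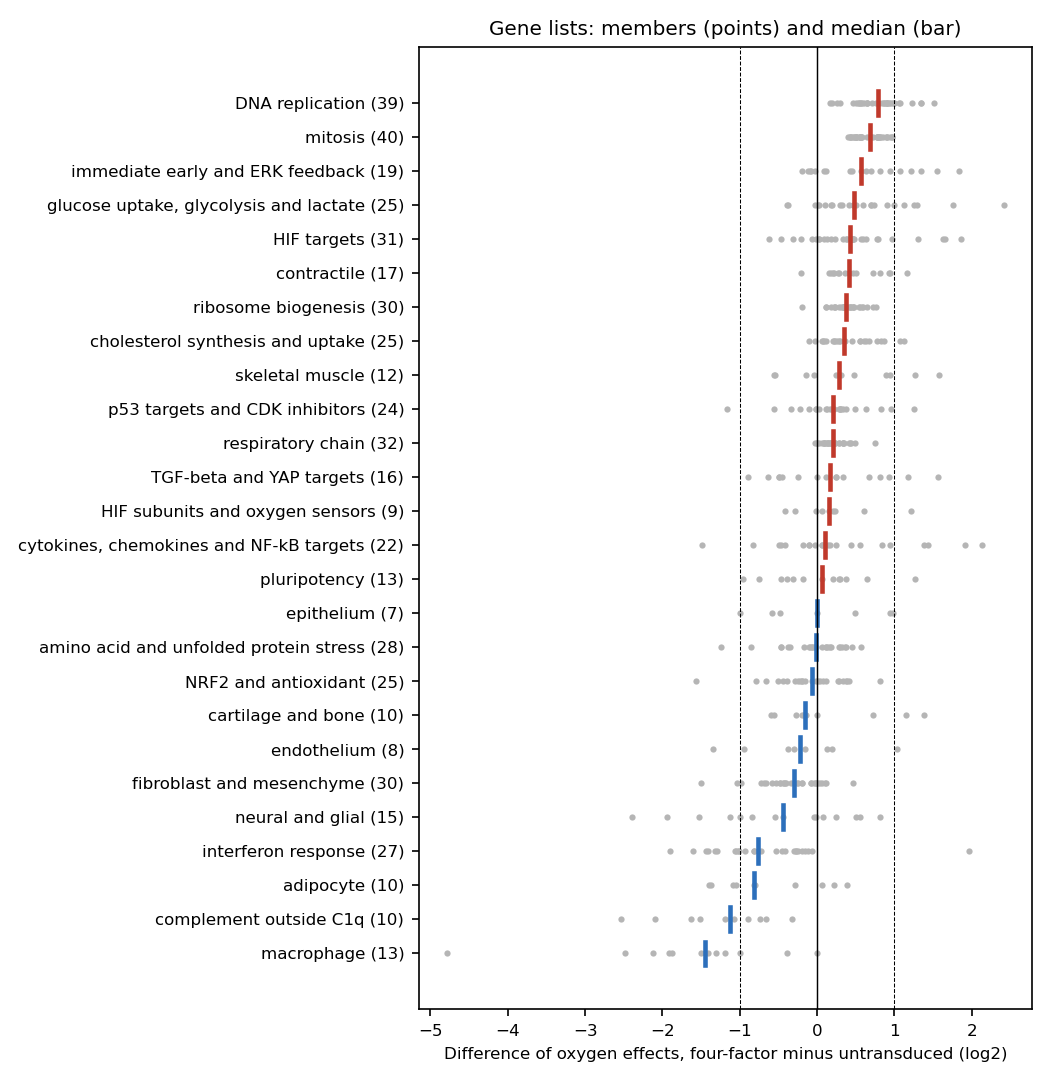
Difference of oxygen effects (four-factor minus untransduced, log2) of each measured gene (grey points) in the 26 lists with at least 7 measured genes (number in brackets), with the list's median as a bar, red above 0 and blue at or below it; dashed lines mark 2-fold and no error is drawn. DNA replication has the highest median, 0.79, and the macrophage list the lowest, -1.45, while several lists straddle 0.

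On the lower side, the largest values belonged to genes that were higher at 5% O2 in untransduced fibroblasts. F13a1, a subunit of coagulation factor XIII made by macrophages among other cells, was at -4.49 and -5.51 in four-factor cells and at -3.21 and 0.57 in untransduced fibroblasts, a difference of oxygen effects of -4.79, which was -3.19 with normexp. It was the lowest value of any named gene, and only the untransduced array at 5% O2 was high. Of the 27 macrophage markers, 13 were measured on all arrays, and their median was -1.45 with oxygen differences of -0.09 and 1.41. At least 2-fold lower were 10 of the 13, against 2.93% of all genes. Of the 10, 7 stayed so with normexp, where the list's median was -1.06, and 9 did with spike-in scaling. Trem2, a receptor of tissue macrophages, was at -4.47 and -5.41 against -1.45 and 0.10, a difference of -2.49 (-1.55 with normexp). Csf1r, the receptor for macrophage colony-stimulating factor, was at -5.04 and -5.59 against -2.68 and -1.11, a difference of -2.12 (-1.11 with normexp). Coro1a, a coronin of blood cells, had 1.01 in both cultures.

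A further 9 macrophage markers were well above background on both untransduced arrays and neither four-factor array, among them Adgre1 (F4/80), Mrc1, C1qa and Ptprc (CD45). Their oxygen difference in untransduced fibroblasts ran from 0.89 to 1.98, with a median of 1.45. Cd163 and Spi1 (PU.1) were well above background on no array, and Itgam (CD11b) on the four-factor arrays only. Cx3cr1 was well above background on the untransduced array at 5% O2 only. Cd52 was well above background on both untransduced arrays and the four-factor array at 5% O2, with an untransduced oxygen difference of 0.05. The summed signal of the 13 measured markers was 1.43 (21% O2) and 1.29 (5% O2) times the 75th percentile in four-factor cells, against 17.0 and 38.2 in untransduced fibroblasts. Lyz2, a lysozyme, made up 14.4 and 30.7 of the untransduced sums, and without it the other 12 markers summed to 1.21 and 1.09 in four-factor cells against 2.57 and 7.52. Fewer cells of a type and less RNA per cell cannot be told apart in these bulk samples.

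Complement and interferon genes went the same way as the macrophage markers, whose part in these results was not tested. All 10 measured complement genes outside C1q were below 0, with a median of -1.13, and 6 were at least 2-fold lower, against 2.93% of all genes. C3, the central component of complement, was at -0.28 and -0.32 in four-factor cells and at 2.21 and 3.79 in untransduced fibroblasts, a difference of -1.63. C2, a protease of the classical pathway, was at -1.64 and -2.09 against 1.41 and 3.49, a difference of -2.53. Serping1, the inhibitor of the C1 proteases, was at -0.10 and -0.07 against 1.88 and 3.42. C3 and Serping1 were level in four-factor cells, C2 was lower there at 5% O2, and the untransduced array at 5% O2 was the highest for all 3.

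Of 27 measured interferon response genes 26 were below 0, with a median of -0.76, and 10 were at least 2-fold lower, against 2.93% of all genes. Of the 27, 14 were below 0 in four-factor cells and above 0 in untransduced fibroblasts, against 20.6% of all genes. With spike-in scaling 22 of the 27 were below 0. Of the 10, only Oasl2 and Gbp2 stayed at least 2-fold lower with normexp, and 6 did with spike-in scaling. Oasl2, of the family that senses viral RNA, was at -3.70 and -4.05 against -0.10 and 1.15, a difference of -1.60. Gbp2, a guanylate-binding protein, had oxygen differences of -0.52 and 0.92, and Ifit1, which binds viral RNA caps, had -0.53 and 0.76. The exception was Rsad2 (viperin), which was at -6.34 and -4.54 in four-factor cells and at -4.55 and -4.71 in untransduced fibroblasts, a difference of 1.96 that was 0.85 with normexp.

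**Figure D5:**
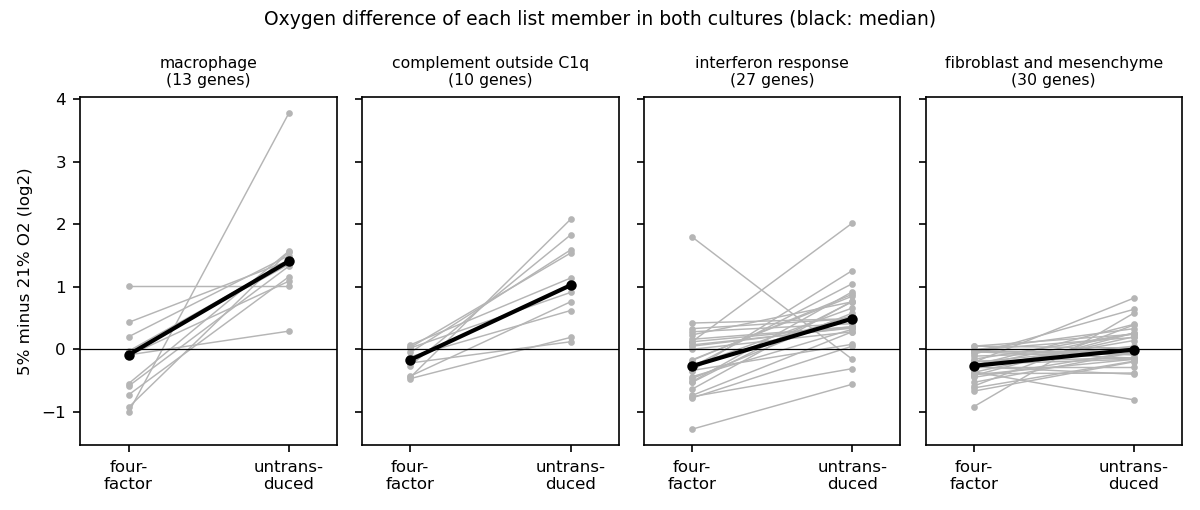
Oxygen difference (5% minus 21% O2, log2) of each measured member of 4 gene lists in four-factor and untransduced cells, joined by a line, with the list's median in black and 1 array per condition. The medians of the macrophage, complement and interferon lists lie just below 0 in four-factor cells (-0.09, -0.17 and -0.27) and above it in untransduced fibroblasts (1.41, 1.02 and 0.49), and the fibroblast list shifts less (-0.27 and 0.00).

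Fibroblast and mesenchyme genes had a median of -0.30, with 24 of 30 below 0 and 2 at least 2-fold lower (Dcn and Pdgfra). Of all genes 2.93% were at least 2-fold lower. With spike-in scaling the median was -0.08 and 17 of 30 were below 0. Dcn, the proteoglycan decorin, was at 3.90 and 2.98 in four-factor cells and at 7.16 and 7.73 in untransduced fibroblasts, a difference of -1.50. Pdgfra, a receptor for platelet-derived growth factor, was at -1.05 and -1.26 against 2.23 and 3.05, a difference of -1.03. Both were lower in four-factor cells at both oxygen levels, and the gap was wider at 5% O2. The major collagen genes Col1a1, Col1a2 and Col3a1 had differences of 0.10, -0.04 and -0.01, and Vim, vimentin, had 0.07.

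Outside the lists the lowest value belonged to Ptgds, prostaglandin D2 synthase, which was at -5.39 and -5.48 in four-factor cells and at -1.29 and 2.29 in untransduced fibroblasts, a difference of -3.67. Tnxb, the matrix glycoprotein tenascin X, was at -4.01 and -4.62 against -2.58 and -0.02, a difference of -3.16. Chrdl1, a secreted BMP antagonist, was at -2.44 and -2.84 against 1.70 and 4.06, a difference of -2.75. In these 3 the four-factor arrays were low at both oxygen levels and the untransduced array at 5% O2 was the highest. Col14a1, a fibril-associated collagen, had oxygen differences of 0.02 and 2.0. Adh1, an alcohol dehydrogenase that can oxidise retinol, had -0.08 and 2.01, and Cygb, cytoglobin, had 0.13 and 2.21. Both were dim in four-factor cells, Adh1 at -4.33 and -4.42 and Cygb at -5.81 and -5.69. Ighm, an immunoglobulin heavy chain of B cells, was at -5.50 and -6.06 against -4.27 and -1.77, a difference of -3.06 that was -1.37 with normexp. Igfbp6, a binding protein for insulin-like growth factors, turned over instead: it was at 3.05 and 2.42 in four-factor cells and at 2.53 and 3.64 in untransduced fibroblasts, so four-factor cells were higher by 0.52 at 21% O2 and lower by 1.22 at 5% O2.

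Some members of the adipocyte list and of the neural and glial list were also lower, beside the macrophage markers above, whose part was not tested. Of 10 measured adipocyte genes 7 were below 0, with a median of -0.81 (-0.52 with normexp). At least 2-fold lower were 4, against 2.93% of all genes. Of the 4, Pparg and Lpl stayed 2-fold lower with normexp, and 2 did with spike-in scaling. Pparg, the master regulator of fat cells, had oxygen differences of -0.60 and 0.76, and Fabp4, a fatty acid carrier, had 0.07 and 1.12. The defining marker Adipoq was well above background only on the untransduced array at 5% O2, and Retn and Lep on no array. The summed signal of the measured adipocyte genes was 56.1 and 41.7 in four-factor cells and 72.1 and 124.9 in untransduced fibroblasts. Lpl, lipoprotein lipase, and Plin2, a lipid droplet protein, made up most of these sums, and the other 8 genes summed to 13.1 and 13 against 8.4 and 9.53.

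Of 15 measured neural and glial genes 10 were below 0, and the median was -0.44. At least 2-fold lower were 5, against 2.93% of all genes. Of the 5, 2 stayed so with normexp and 3 with spike-in scaling. Other glial genes differed less: Mbp, a myelin protein, had oxygen differences of 1.02 and 1.03, and Cnp and Fabp7 had differences of oxygen effects of -0.44 and -0.55. Sox10, the neural crest and glial transcription factor, was at -4.14 and -4.68 in four-factor cells and at -1.31 and 0.54 in untransduced fibroblasts, a difference of -2.39. Foxd3, Erbb3 and S100b were at -1.94, -1.12 and -1.0, and all were below 2-fold with normexp. The neuronal gene Map2 had the list's highest value, 0.81, from 0.17 and -0.64. Gfra3, a receptor of GDNF-family ligands outside the list, was at -5.21 and -5.19 against -0.14 and 2.39, a difference of -2.51. The summed signal of the 15 genes was 26.1 and 29.5 in four-factor cells and 12.5 and 17.2 in untransduced fibroblasts.

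Among the higher genes outside the lists, Atp12a, a proton and potassium pump, had the largest value. It was at -2.01 and -0.99 in four-factor cells and at -3.04 and -4.91 in untransduced fibroblasts, a difference of 2.89 (1.78 with normexp), and it was the only gene at least 2-fold higher at 5% O2 in four-factor cells and at least 2-fold lower in untransduced fibroblasts. Its probe maps to chromosome 14 of mm8. Smtnl2, a smoothelin-like protein, was at -5.46 and -1.66 against -3.88 and -2.68, a difference of 2.59 (1.55 with normexp). Inppl1, the lipid phosphatase SHIP2, was at 0.11 and 1.86 against -0.83 and -0.88, a difference of 1.80, and here the four-factor array at 5% O2 alone was high. Nts, the peptide neurotensin, had oxygen differences of 0.87 and -1.36, and H1f5, a linker histone, had 0.78 and -0.98. Myh2, a fast skeletal myosin, had 0.96 and -0.91, with all 3 of its probes of the same sign.

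In the reverse direction 5 genes were at least 2-fold lower at 5% O2 in four-factor cells and at least 2-fold higher in untransduced fibroblasts. These were F13a1, Adamdec1, Dbx2, Rapgef5 and Col9a3. Klhl30, a kelch protein just short of this limit, was at -0.46 and -1.45 in four-factor cells and at -1.62 and -0.53 in untransduced fibroblasts, a difference of -2.07. Its level was higher in four-factor cells at 21% O2 and higher in untransduced fibroblasts at 5% O2.

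The remaining lists had medians nearer to that of all genes, or few measured members. For p53 targets and CDK inhibitors 17 of 24 were above 0, against 52.4% of all genes, and the median was 0.21. In that list Pmaip1 (the cell death gene Noxa) was at 0.57 and 0.15 in four-factor cells and at 1.04 and -0.63 in untransduced fibroblasts, a difference of 1.25. Cdkn2a, the Ink4a/Arf locus, had oxygen differences of 0.30 and -0.66. Cdkn1c, the imprinted inhibitor p57, was at 1.06 and 1.41 against 5.01 and 6.52, a difference of -1.16, so it was far higher in untransduced fibroblasts at both oxygen levels.

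The antioxidant NRF2 list had a median of -0.06 (0.16 with spike-in scaling), with Gsta3, a glutathione transferase, at -1.57 and Gsr, glutathione reductase, at 0.81. The amino acid and unfolded protein stress list had a median of -0.01 (0.21 with spike-in scaling). Its lowest member was Nupr1, a stress-induced nuclear protein, at 5.78 and 4.81 in four-factor cells and at 5.29 and 5.55 in untransduced fibroblasts, a difference of -1.24. Ddit3, the stress factor CHOP, had oxygen differences of -0.92 and -0.06. Cartilage and bone markers had a median of -0.15 (0.07 with spike-in scaling) over 10 measured genes. Among them Spp1, osteopontin, was at 6.36 and 5.53 against 5.55 and 3.34, a difference of 1.38. Skeletal muscle markers had a median of 0.29 over 12 measured genes, led by Tnnt2, cardiac troponin T, with oxygen differences of -0.49 and -2.07, and endothelial markers had a median of -0.22 over 8.

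Pluripotency and epithelial genes could be compared only in part. The 13 measured pluripotency genes had a median of 0.06 and 1 reached 2-fold: Mybl2, a cell cycle transcription factor, with 0.55 and -0.72 and a difference of 1.27. The shares over all genes were 1.74% at least 2-fold higher and 2.93% lower. Tfcp2l1, a factor of naive pluripotency, had oxygen differences of 1.34 and 0.69. Utf1, Zfp42, Lin28b, Nr0b1 and Tcl1 were well above background on both four-factor arrays and neither untransduced array, with oxygen differences in four-factor cells from -0.02 to 2.09. The four-factor array at 5% O2 was the only one with Nanog well above background. The 7 measured epithelial genes had a median of 0.00 and none reached 2-fold. Dsp, desmoplakin, had 0.05 and -0.94, Krt7, a keratin of simple epithelia, had -0.20 and 0.79, and Krt8, another, had 1.37 and 0.88. Epcam, Rab25, Crb3 and Tjp3 were well above background on the four-factor arrays only, with oxygen differences there from -0.14 to 1.24. Cdh1, Cldn1, Cldn3, Pkp3 and Spint1 were so on the four-factor arrays and the untransduced array at 5% O2. Their oxygen differences in four-factor cells ran from -0.24 to 1.33. Of the array's gene names 2309 were well above background on both four-factor arrays and neither untransduced array, and 178 were the reverse, and these have no difference of oxygen effects here.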

How the data were processed

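Per the labels' protocols, total RNA was labelled with Cy3 (Quick Amp, version 5.7). Per the file headers, Agilent Feature Extraction (version 9.5.3.1) read the arrays, of design 014868. It subtracted the background from the deposited intensity and detrended it within each array, per the file headers, with no step between arrays. The deposited value table holds log2 values of the same arrays and served as an alternative.

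Outlier spots (65 to 115 per array) were dropped, replicate spots averaged, and log2 of the processed intensity was taken minus the array's 75th percentile. A gene was its brightest probe among those well above background on all 4 arrays. Of 5392 genes with several such probes, 28.1% had probes that differ in sign, but 8 of 116 did among genes at least 2-fold apart. Names are RefSeq symbols (GRCm38.p6) for probes that matched, 24367 of 41174 by accession, 6307 by symbol and 2425 by synonym. The other 8075 probes keep the name given with the array. Probe positions are of build mm8, and promoter windows are RefSeq's of GRCm38.p6. Whether a probe lies in an exon or a UTR was not analysed here.

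With 4 arrays in 4 conditions no test was possible; the call is a 2-fold limit. Genes were named by rule: the largest 15 per direction that hold with and without normexp (offset 50), the largest 5, the 8 most opposed, the 8 most alike (within 0.25), up to 5 per list, and fixed genes, with a few of these left out here. Further list members given with oxygen differences (such as Pfkl, Angptl4, Car9, Mki67, Acta2, Hmgcs1, E2f1, Map2 and the collagens) were chosen after their values were seen, as were the sums of list signals without the brightest members. The members and the 27 lists (661 genes, 539 measured, 9 unmatched) were chosen with earlier results of these data known. The computation was tested on simulated data. R 4.3.3, limma 3.58.1, data.table (version 1.17.8), Python 3.11.15 and pandas 2.3.3 were used.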

Additional observations from a re-analysis of the deposited data

Results flagged for a closer look

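These values stand out because the oxygen difference had opposite signs in the 2 cultures, and with 1 array per condition the difference itself was not tested. At least 2-fold in each culture, Atp12a was higher at 5% O2 in four-factor cells and lower in untransduced fibroblasts (difference of oxygen effects 2.89), and 5 genes were the reverse. Those were F13a1 (-4.79), Adamdec1, a secreted metalloprotease (-2.71), Dbx2, a homeobox gene (-2.27), Rapgef5, an exchange factor of Rap proteins (-2.10), and Col9a3, a cartilage collagen (-2.10). With normexp background correction none of these 6 was at least 2-fold in each culture, and the differences were 1.78, -3.19, -1.14, -0.82, -0.88 and -0.66 in the same order. The medians of the DNA replication list (0.79) and the mitosis list (0.69) came from 38 of 39 and 37 of 40 measured genes that were above 0 in four-factor cells and below 0 in untransduced fibroblasts. These were 0.77 and 0.61 with normexp and 1.01 and 0.91 with spike-in scaling.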

How the results depend on the processing

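No paired analysis was possible because each condition had 1 array. The difference of oxygen effects was recomputed under 10 alternatives, and no named gene at least 2-fold apart changed sign under any of them. This was in part fixed in advance and is no measure of robustness. Some of these genes were named because they held with normexp and had probes of the same sign. Several alternatives also left the values of named genes nearly unchanged. Against 260 genes at least 2-fold higher and 437 lower, with 1 and 5 opposed genes at least 2-fold in each culture, the counts were 125, 184, 0 and 0 with normexp and 602, 251, 3 and 1 with spike-in scaling. They were 711, 892, 12 and 17 with probes well above background on at least 2 arrays (18282 genes), 1943, 1694, 43 and 52 with no filter on dim probes (27582 genes), and 56, 67, 0 and 0 in the brighter part of the genes (7467). Quantile normalization, median scaling, the median over a gene's probes, outlier spots kept and the deposited value table gave 259 to 275 higher and 433 to 462 lower genes. Of 102 named genes at least 2-fold apart, 19 were under 2-fold with normexp. Signal over background is the limit: of the 2987 dimmest genes 10.9% were at least 2-fold apart, and 2.28% with normexp. Spike-in scaling shifted every gene upward, by the same amount, and no other alternative moved the median of all genes by over 0.10. The spread between cultures of a condition is unknown.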
